A study of Mus musculus with 22 samples.

Results

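Gene expression in mouse blastocysts that had developed in the culture medium KSOM was set against that in blastocysts that had developed in vivo. Both groups were embryonic day 3.5 embryos of the strain labelled B6, and the arrays were chosen by their titles and culture medium labels. There were 3 KSOM arrays and 3 in vivo arrays, 6 of the 22 arrays of the study. The labels call the 3 arrays of a group biological replicates. They give no transgene, deletion or drug in either group, and not how many embryos were pooled per array, how long the KSOM embryos were cultured, or the age of the mothers. The other arrays used here are 3 B6 arrays each of embryos grown in the media HTF and ISM1, 1 CD1 array of embryos grown in KSOM and 3 CD1 arrays of embryos grown in vivo.

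The mouse blastocyst holds an outer epithelium, the trophectoderm, that pumps fluid into a cavity, and an inner cell mass that sorts into epiblast and primitive endoderm. In the oviduct and uterus the embryo is exposed to maternal growth factors and cytokines. KSOM is a simple medium developed for growing mouse embryos outside the mother. Cytokines of the leukaemia inhibitory factor (LIF) family act through the kinase JAK and the transcription factor STAT3, which switches on its own feedback inhibitor Socs3, and growth factors act through the ERK kinase, which switches on Fos and the Dusp phosphatases.

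The RNA was measured on Illumina MouseRef-8 bead arrays, whose deposited values are bead intensities with a detection p-value, and levels below are normalised log2 intensities. A gene counts as detected on an array where its detection p is under 0.05. Genes with a probe detected on at least 3 of the 22 arrays were tested, which left 9345 genes. The median intensity of an array was 106.9 to 153.7 on the KSOM arrays and 127.2 to 148.8 on the in vivo arrays. KSOM replicate 3 was the dimmest of the 6, with a 95th percentile of intensity of 1415, against 2421 to 3825 on the other 5. It also had the fewest detected genes, 6612 against 7550 to 7641 on the others. Across genes, the 3 KSOM arrays correlated with each other at a mean r of 0.919 and the 3 in vivo arrays at 0.917, against 0.949 for the ISM1 arrays and 0.969 for the HTF arrays. KSOM replicates 1 and 2 and all 3 in vivo arrays correlated more closely with the HTF arrays (mean r of 0.914 to 0.976) than with their own group (0.895 to 0.939). KSOM replicate 2 had a mean r of 0.976 with the HTF arrays, 0.962 with the ISM1 arrays and 0.95 with the in vivo arrays, against 0.924 with the other KSOM arrays, and whether its label is right was not tested. In vivo replicate 2 also correlated less with its own group (0.917) than with the KSOM (0.922), HTF (0.954) and ISM1 arrays (0.947), as did in vivo replicate 3 (0.895, against 0.91, 0.914 and 0.921).

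**Figure D1:**
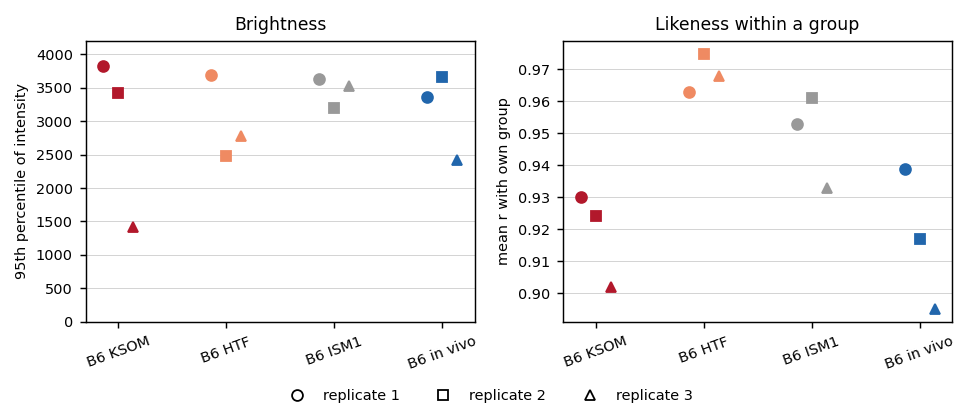
The 95th percentile of bead intensity of each B6 array (left) and its mean correlation across genes with the other arrays of its group (right), by medium and replicate. KSOM replicate 3 had the lowest 95th percentile, 1415, and the KSOM and in vivo arrays were less alike within their groups than the HTF and ISM1 arrays.

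The embryos in both groups carried the markers of a blastocyst. Of 24 trophectoderm markers on the array, 20 to 21 were detected on the KSOM arrays and 19 to 21 on the in vivo arrays. Of 23 epiblast and inner cell mass markers, 18 were detected on each KSOM array and 18 to 19 on the in vivo arrays. Of 24 primitive endoderm markers, 14 to 18 were detected in each group. Of 20 markers of blood and immune cells, 3 to 4 were detected on the KSOM arrays and 1 to 5 on the in vivo arrays. Ptprc, Lyz2 and Tyrobp were detected on no array of either group. Ptpn6 was detected on all 3 arrays of each group, with a mean of 8.35 in KSOM and 8.26 in vivo. Cd3e was detected on 3 of 3 KSOM and 2 of 3 in vivo arrays, and Cd74 on 2 of 3 and 1 of 3. Of 20 markers of reproductive tract epithelium, 3 to 4 were detected in KSOM and 4 to 5 in vivo, with Pax8 and Lcn2 on no array. Foxj1 and Wfdc2 were detected on all 6 arrays, with Wfdc2 at 12.72, 12.40 and 13.29 in KSOM and at 11.92, 12.79 and 11.01 in vivo. Msx1 was detected on 0 of 3 KSOM arrays (5.11, 5.24 and 4.93) and on 2 of 3 in vivo arrays (5.83, 6.65 and 5.31). Cldn10 was likewise detected on 0 of 3 KSOM arrays (4.98, 4.79 and 4.53) and on 2 of 3 in vivo arrays (6.56, 6.07 and 4.57). Of 20 markers of cumulus and granulosa cells, 4 were detected on every array, with Has2, Ptx3, Amh and Fshr on none. The 4 were Hsd17b1, Amhr2, Cyp11a1 and Nr5a2. Their mean levels were 9.95, 7.37, 5.84 and 10.95 in KSOM and 8.85, 7.94, 5.75 and 10.91 in vivo. The mean level of the tested members was 5.94 to 6.39 in KSOM and 5.78 to 6.97 in vivo for the 5 blood markers, 6.33 to 6.65 in KSOM and 6.06 to 6.76 in vivo for the 7 reproductive tract markers, and 7.99 to 9.09 in KSOM and 7.91 to 8.72 in vivo for the 4 cumulus markers. The haemoglobin gene Hba-a1 had levels of 4.71, 4.49 and 4.86 in KSOM and 5.22, 7.24 and 5.81 in vivo, where it was detected on 2 of 3 arrays, against 0 of 3 in KSOM. The part of other cell types in the differences below was not tested. An array of whole embryos cannot tell fewer cells of a type from less RNA per cell.

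No gene passed the test between KSOM and in vivo blastocysts. The limma fit across all 22 arrays called 0 of 9345 genes (0%) at an adjusted p under 0.05, and the lowest adjusted p was 0.0565. At an unadjusted p under 0.05 there were 553 genes, of which 297 were higher in KSOM (3.18% of genes tested) and 256 were lower (2.74%). Scaling the arrays by their medians in place of quantile normalization turned this split to 201 higher and 333 lower, with the median of all genes at -0.088. All 3 KSOM arrays lay above all 3 in vivo arrays for 447 genes (4.78%) and below them for 318 (3.4%). The median standard error of a gene's difference was 0.43 on the log2 scale. The same count of called genes was 35 without KSOM replicate 2, with 11 higher and 24 lower, and 0 without any other single KSOM or in vivo array. The genes described next are those with the lowest p among non-overlapping genes that were detected on all 3 arrays of the higher group and differed by at least 1 on the log2 scale, 12 in each direction of 143 higher and 105 lower. They were chosen by the values shown. Without KSOM replicate 2, those among them that passed the threshold were Nrl, Traf1, Cyp4f39, Dctn1, Dcp1b and Extl1, all higher, and Phf11a, Zfp36, Wdr45b, Dusp1 and Klhl7, all lower.

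The genes lowest in KSOM included feedback regulators that cytokine and growth factor signals switch on. Phf11a, a PHD finger gene on the list of interferon-responsive genes, had levels of 5.99, 4.98 and 4.63 in KSOM and 9.59, 9.28 and 8.27 in vivo. The highest KSOM array was thus more than 2 log2 units below the lowest in vivo array, and a second probe of the gene gave a difference of -3.93. Its mean difference of -3.85 ± 0.60 (SE), 14.4-fold, had the lowest p of all genes (limma, unadjusted p = 6.05e-06, adjusted p = 0.0565). Phf11a was detected on 1 of 3 KSOM arrays and on all 3 in vivo arrays, so the fold rests partly on levels near the detection floor. The difference was -2.97 with an offset of 50 and -4.85 with the authors' values. Socs3, the STAT3-induced inhibitor of JAK signalling, stood at 7.01, 7.16 and 7.22 in KSOM and at 10.30, 11.64 and 9.08 in vivo. The KSOM arrays were closely alike and the in vivo arrays spread over more than 2 log2 units, with a difference of -3.21 ± 0.90 (SE, limma, adjusted p = 0.618). With any 1 of the 6 arrays left out, the difference was -4.24 to -3.56 for Phf11a and -3.84 to -2.56 for Socs3. Of these refits, Phf11a passed the threshold in the one without KSOM replicate 2 (limma, adjusted p = 0.0355). The lowest adjusted p of any gene was 0.46 without KSOM replicate 3 and 0.417 without in vivo replicate 1 (limma). In the fit of only the 6 compared arrays the adjusted p of Phf11a was 0.991 (limma). Zfp36, an RNA-binding protein that speeds the decay of cytokine and other short-lived messages, read 6.45, 7.99 and 7.18 in KSOM and 9.02, 9.04 and 9.58 in vivo, a difference of -2.01 ± 0.39 (SE, limma, adjusted p = 0.209).

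Dusp1, a phosphatase that switches off MAP kinases, had levels of 8.78, 9.90 and 8.30 in KSOM and 10.36, 10.63 and 10.48 in vivo. KSOM replicate 2 came nearest to the in vivo arrays, and the difference was -1.50 ± 0.36 (SE, limma, adjusted p = 0.533). Icam1, a cytokine-induced adhesion molecule, was at 5.25, 5.50 and 4.70 in KSOM and at 6.03, 6.57 and 7.64 in vivo, a difference of -1.60 ± 0.40 (SE, limma, adjusted p = 0.567). Nfil3, a leucine zipper repressor induced by cytokines in lymphocytes, was at 7.25, 6.58 and 5.19 in KSOM and at 8.32, 8.90 and 8.32 in vivo, a difference of -2.17 ± 0.62. The groups did not overlap for any of these genes. Fos, an immediate early gene that encodes a subunit of the AP-1 transcription factor, was detected on no KSOM array (4.86, 5.27 and 4.44) and on all 3 in vivo arrays (6.45, 8.16 and 5.95). It was at least 2.59-fold lower in KSOM, taking the detection floor as its level there (limma, unadjusted p = 0.0179, adjusted p = 0.728).

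The promoters of the 12 genes lowest in KSOM, the 250 bases before the start of each gene in RefSeq's GRCm38.p6 build, were searched on both strands for 3 motifs. The table matched 10 of the 12, all but Wdr45b and Luc7l. These were the STAT site TTCNNNGAA, the cAMP response element TGACGTCA and the AP-1 site TGANTCA, which do not overlap each other in the windows. The STAT site was in 3 of the 10, Socs3, Zfp36 and Icam1, and in 1940 of all 27025 promoters of this length in the table (7.18%). The cAMP response element was in 1 of the 10, Dusp1, and in 439 of all promoters (1.62%), and the AP-1 site was in 0 of the 10 and in 1856 of all (6.87%). Neither Fos nor Klf4, which are not among the 12, held any of these motifs. The motifs were picked with these genes in view, so the shares are a description with no test. The Socs3 window lies at chr11:117969367-117969616 on the minus strand, with its STAT site 154 bases before the start, and the Zfp36 window at chr7:28379229-28379478 on the minus strand, with the site at 17 bases. The Icam1 window lies at chr9:21015690-21015939 on the plus strand, with the STAT site at 42 bases, and the Dusp1 window at chr17:26508473-26508722 on the minus strand, with the cAMP response element at 143 bases. These 4 windows are shown because they hold a match, 5′ to 3′ on the strand of the gene, with the matched motif in capitals. A match describes the letters only, and no binding was measured.
Socs3: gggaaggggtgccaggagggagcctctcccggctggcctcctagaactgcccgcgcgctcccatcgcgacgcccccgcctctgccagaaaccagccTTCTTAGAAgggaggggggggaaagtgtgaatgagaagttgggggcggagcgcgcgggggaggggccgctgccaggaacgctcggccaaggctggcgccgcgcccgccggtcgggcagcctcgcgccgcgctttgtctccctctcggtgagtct
Zfp36: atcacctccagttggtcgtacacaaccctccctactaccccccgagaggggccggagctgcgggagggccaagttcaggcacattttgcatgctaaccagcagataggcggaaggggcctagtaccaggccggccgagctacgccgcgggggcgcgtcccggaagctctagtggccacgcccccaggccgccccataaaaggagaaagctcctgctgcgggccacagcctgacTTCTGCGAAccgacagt
Icam1: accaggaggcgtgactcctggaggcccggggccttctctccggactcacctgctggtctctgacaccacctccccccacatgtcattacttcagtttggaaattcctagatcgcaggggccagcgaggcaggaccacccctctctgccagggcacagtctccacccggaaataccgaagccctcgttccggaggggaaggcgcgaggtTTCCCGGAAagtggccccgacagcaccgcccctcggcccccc
Dusp1: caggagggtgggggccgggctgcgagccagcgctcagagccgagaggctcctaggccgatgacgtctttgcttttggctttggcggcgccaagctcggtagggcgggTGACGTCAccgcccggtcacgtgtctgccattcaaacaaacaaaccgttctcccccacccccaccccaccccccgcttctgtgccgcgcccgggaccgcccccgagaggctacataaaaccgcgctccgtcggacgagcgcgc

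The same genes could be read in the other B6 media and in CD1 embryos. HTF and ISM1 arrays were compared with the same KSOM arrays, so their values are set side by side with no test between the comparisons. Phf11a was at 6.32, 6.14 and 7.45 in HTF and at 7.64, 8.62 and 9.13 in ISM1. The HTF arrays lay between the KSOM and in vivo arrays, and ISM1 replicates 2 and 3 fell within the in vivo range. Socs3 was at 6.61, 6.12 and 6.56 in HTF, below every KSOM array, and at 9.66, 8.02 and 10.78 in ISM1, above every KSOM array. Zfp36 was at 8.61, 7.64 and 8.36 in HTF and at 8.89, 9.06 and 8.40 in ISM1. Fos was at 4.86, 4.85 and 5.07 in HTF, close to the KSOM arrays, and at 5.82, 6.51 and 5.40 in ISM1.

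In CD1 embryos the single KSOM array had a Phf11a level of 6.14, against 11.07, 9.31 and 8.40 on the in vivo arrays. Socs3 was at 7.14 on the CD1 KSOM array and at 9.73, 11.52 and 9.20 on the CD1 in vivo arrays. For Zfp36 the CD1 KSOM level was 7.95 and the CD1 in vivo levels were 9.69, 9.96 and 8.85. Icam1 was at 5.04 on the CD1 KSOM array and at 7.66, 6.85 and 6.93 on the CD1 in vivo arrays. In all 4 genes the CD1 KSOM array was below every CD1 in vivo array. With 1 CD1 KSOM array there is no test. The CD1 arrays do not enter the B6 mean differences, but they were normalised together with the B6 arrays. The spread of the CD1 in vivo arrays also entered the fit whose p chose the 12 genes in each direction. Counts of those genes in CD1 are thus not a separate check. Of the 12 genes listed as lowest in B6 KSOM, the CD1 KSOM array was below all 3 CD1 in vivo arrays for 10, within their range for 1 (Rbm15) and above them for 1 (Luc7l). Over all genes tested that array was below all 3 CD1 in vivo arrays for 17% and above them for 19.8%.

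**Figure D2:**
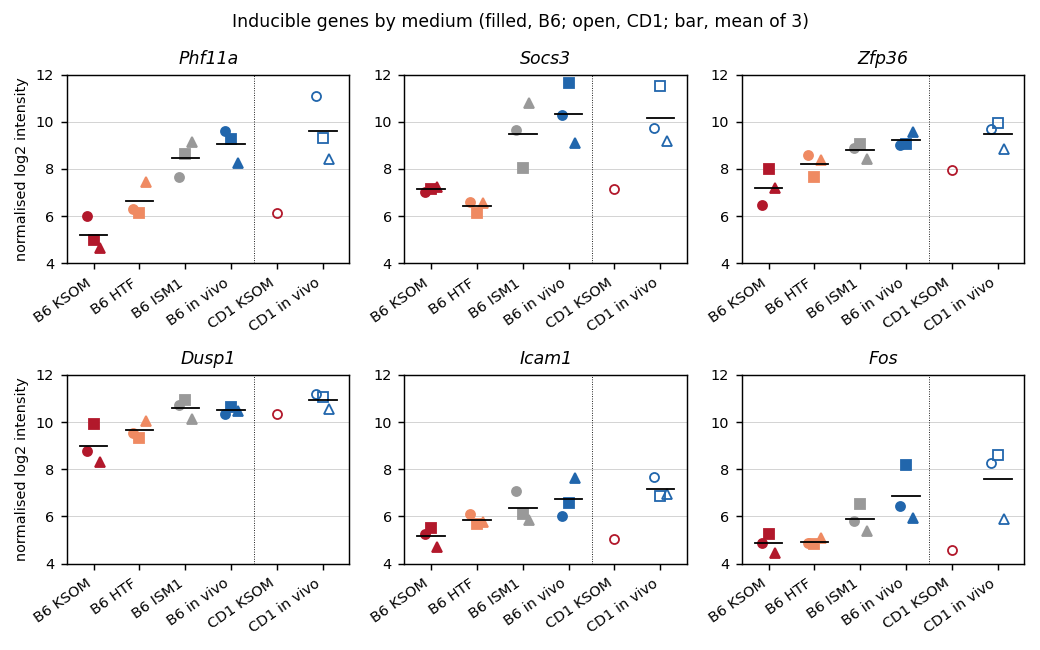
Normalised log2 intensity of 6 genes that signals can switch on, on every KSOM, HTF, ISM1 and in vivo array of B6 embryos (filled). Open symbols are the KSOM and in vivo arrays of CD1 embryos. Circles, squares and triangles are replicates 1 to 3 and the bar is the mean of 3. The genes were chosen with their B6 values known, and no signal was measured. In the B6 LIF and STAT3 list 14 members were lower in KSOM and 4 higher. In the B6 FGF and ERK list 9 were lower and 5 higher. B6 KSOM arrays lay below all B6 in vivo arrays for each gene, as did the CD1 KSOM array relative to CD1 in vivo.

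The other genes of the 12 lowest in KSOM had varied roles. Rbm15, an RNA-binding subunit of the complex that methylates adenosines in messenger RNA, had levels of 5.64, 5.76 and 5.74 in KSOM and 8.12, 7.40 and 7.08 in vivo, a difference of -1.82 ± 0.43 (SE). The 3 KSOM arrays were nearly equal. Klhl7, a substrate adaptor of a cullin ubiquitin ligase, was at 5.55, 7.99 and 5.55 in KSOM and at 8.77, 8.28 and 8.75 in vivo, so that KSOM replicate 2 nearly reached the in vivo arrays and the other KSOM arrays were more than 2 log2 units below. Phf11d, a relative of Phf11a, was at 7.92, 7.71 and 6.68 in KSOM and at 8.64, 8.18 and 8.95 in vivo, with a second probe at a difference of -1.23. Wdr45b, an autophagy protein that binds phosphoinositides, was at 9.56, 10.18 and 9.56 in KSOM and at 11.23, 10.71 and 11.30 in vivo. Its other probes did not share this difference of -1.31, at 1.24 and -0.24. The acid phosphatase gene Acpp differed by -2.01 (other probe -0.52) and the splicing factor gene Luc7l by -1.02 (other probe -0.22), so these differences also rest on 1 probe.

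Among the 12 genes highest in KSOM, several were near or below detection in vivo. Nrl, a leucine zipper transcription factor of rod photoreceptors, had levels of 6.40, 5.89 and 7.39 in KSOM and was detected on no in vivo array (4.55, 4.63 and 4.55). It was at least 2.31-fold higher in KSOM and had the second lowest p of all genes (limma, adjusted p = 0.0967). Dctn1, a dynactin subunit, was at 6.64, 6.56 and 9.14 in KSOM and at 5.33, 5.03 and 4.58 in vivo, also undetected there, and at least 4.27-fold higher in KSOM. KSOM replicate 3 was the highest, more than 2 log2 units above the other KSOM arrays, and without it the difference was 1.63, against 2.47 with all arrays. Dcp1b, an mRNA decapping cofactor, was at 6.89, 5.83 and 7.11 in KSOM and undetected in vivo, at 4.64, 4.79 and 4.68, and was at least 2.38-fold higher. Without KSOM replicate 2 both passed the threshold (limma, adjusted p = 0.0367 for Dctn1 and 0.0487 for Dcp1b). Traf1 and Traf3ip2, adaptors of tumour necrosis factor and interleukin receptors, were detected on all 3 KSOM arrays and on no in vivo array, and were at least 1.73-fold and at least 1.89-fold higher.

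The highest genes that were detected in both groups included Col7a1, the collagen of anchoring fibrils. It stood at 8.01, 8.16 and 8.58 in KSOM and at 6.61, 6.56 and 6.49 in vivo, a difference of 1.70 ± 0.35 (SE, limma, adjusted p = 0.246). Both groups were tight and lay more than 1 log2 unit apart. Cyp4f39, a fatty acid hydroxylase, was at 9.04, 7.82 and 8.91 in KSOM and at 6.59, 7.15 and 6.52 in vivo. Extl1, a heparan sulphate glycosyltransferase, was at 8.32, 7.38 and 9.29 in KSOM and at 5.91, 6.83 and 6.24 in vivo, and in both genes KSOM replicate 2 came nearest to the in vivo arrays. Rad9b, a relative of a DNA damage checkpoint clamp subunit, was at 8.54, 8.03 and 8.89 in KSOM and at 6.93, 6.75 and 6.88 in vivo. Adcy9, an adenylyl cyclase, differed by 1.73 ± 0.44, the orphan receptor gene Gpr19 by 1.26 ± 0.32 and Lins1, a homologue of Drosophila lines, by 1.15 ± 0.30 (SE, limma, adjusted p = 0.567 for each). Of these 12 genes the CD1 KSOM array was above all 3 CD1 in vivo arrays for 6, within their range for 4 and below them for 2, Rad9b and Lins1.

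**Figure D3:**
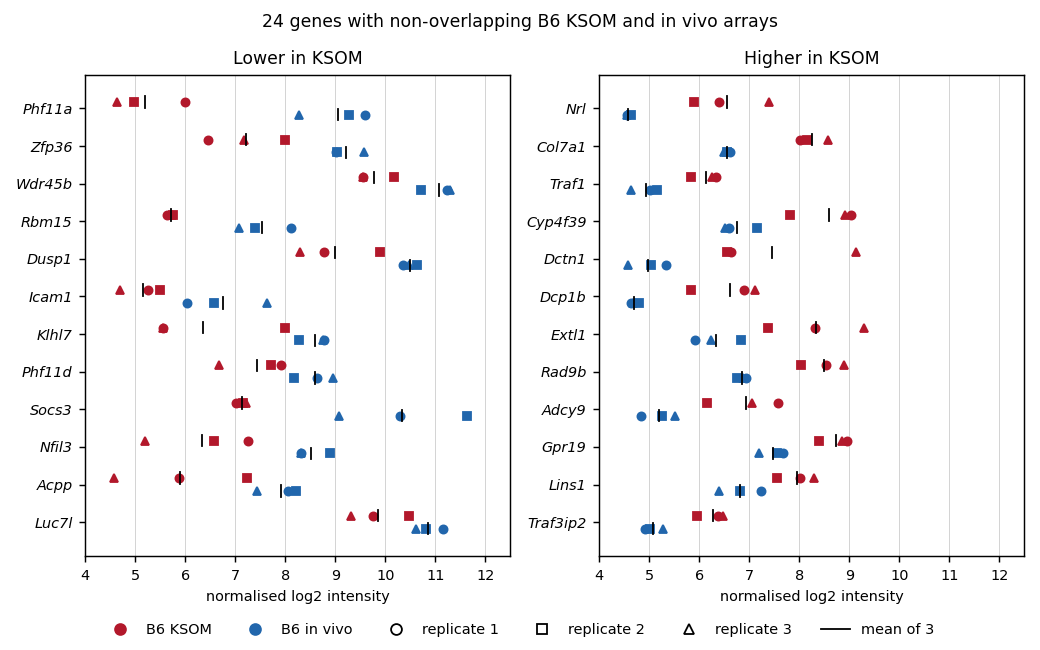
Normalised log2 intensity on each KSOM (red) and in vivo (blue) array for the 12 non-overlapping genes with the lowest p in each direction, with symbols for the replicates and a bar for the mean of 3. The groups are separate by choice. KSOM replicate 2 (red squares) was the KSOM array nearest to the in vivo arrays in all the higher genes but Col7a1. It was also nearest in all the lower genes but Phf11a, Phf11d, Socs3 and Nfil3.

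Genes first switched on at the 2-cell stage were the most strongly shifted gene list. This list held genes of the transient genome activation program, such as the Zscan4, Tcstv and Tdpoz families, which a part of embryonic stem cells also expresses. Of 17 members tested, 15 were lower in KSOM and 2 higher, with a median difference of -1.56, against 0.006 over all genes tested. The adjusted test called 0 members of this or any other list. At an unadjusted p under 0.05, 6 of the 17 were lower, against 2.74% of all genes, and 8 had all KSOM arrays below all in vivo arrays, against 3.4% of all genes. Of the 17, 8 were detected on no KSOM array and 1 on no in vivo array, and the median was -1.53 with such genes at their bound. The members are paralogs of nearly the same sequence in several cases, so a probe may read more than 1 family member.

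Tcstv3, chosen here after its values were seen, had levels of 5.83, 5.86 and 5.43 in KSOM and 11.13, 6.13 and 10.87 in vivo, a difference of -3.67. Tcstv1 was at 5.59, 5.15 and 4.59 in KSOM and at 10.58, 5.78 and 9.83 in vivo (-3.62 ± 1.44, SE). In vivo replicate 2 was in each gene close to the KSOM arrays, and the other in vivo arrays were more than 4 log2 units above. Tdpoz1, of a family of speckle-type proteins, was at 6.60, 6.79 and 4.68 in KSOM and at 10.85, 7.89 and 8.44 in vivo, a difference of -3.04 ± 1.12 (SE, limma, adjusted p = 0.689). Arg2, a mitochondrial arginase, was at 6.96, 6.37 and 4.65 in KSOM and at 8.94, 6.99 and 9.04 in vivo. Gm5662 was at 5.10, 4.95 and 4.73 in KSOM and at 10.43, 6.56 and 7.94 in vivo, though its other probe differed by 0.36. Zscan4c, also named after its values were seen and known in mouse for telomere maintenance in stem cells, was at 5.11, 4.81 and 4.76 in KSOM and at 10.49, 5.33 and 5.14 in vivo, so in vivo replicate 1 alone was high.

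The size of the shift differed between in vivo arrays. In vivo replicate 1 was above all KSOM arrays for 15 of the 17 genes, and by more than 1 log2 unit for 12. In vivo replicate 3 was above them for 13, by more than 1 for 9, and in vivo replicate 2 for 9, by more than 1 for 3. The mean level of the 17 genes was 5.88, 5.89 and 5.59 on the KSOM arrays, 6.26, 5.90 and 7.28 in HTF, 6.69, 6.83 and 7.74 in ISM1, and 8.96, 6.18 and 7.57 in vivo. On the CD1 arrays it was 5.86 in KSOM and 8.45, 5.87 and 5.80 in vivo, so the CD1 KSOM array was at the level of 2 of the 3 CD1 in vivo arrays. Without in vivo replicate 1 the median difference was -0.68, and without in vivo replicate 2 it was -2.68. Oocyte transcripts, messages that the egg supplies, had mean levels of 7.07, 7.08 and 6.70 in KSOM and of 7.42, 6.83 and 7.30 in vivo, where in vivo replicate 2 was again the lowest of its group. Their part in the shift was not tested.

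**Figure D4:**
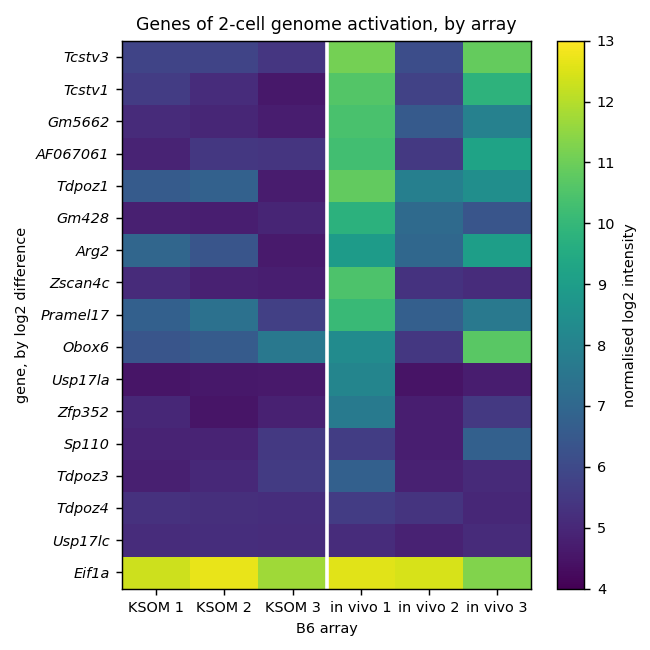
Normalised log2 intensity of the 17 tested 2-cell genes (rows, ordered by the difference between KSOM and in vivo) on the 3 KSOM and 3 in vivo arrays of B6 embryos. Tcstv3, Tcstv1 and AF067061 were bright on in vivo replicates 1 and 3 and dim on all KSOM arrays and on in vivo replicate 2.

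Genes of the LIF and STAT3 pathway were lower in KSOM for 14 of 18 members tested, with a median of -0.42 and 2 at an unadjusted p under 0.05, both lower, against 2.74% of all genes. Besides Socs3 these were led by Klf4, a pluripotency transcription factor downstream of STAT3, with levels of 8.21, 9.31 and 8.85 in KSOM and 9.85, 9.74 and 9.91 in vivo. Its other probes differed by -0.21 and -0.40, less than the -1.05 of the probe used. Pim3, a kinase gene that STAT3 switches on, was at 9.62, 9.67 and 9.09 in KSOM and at 10.26, 10.99 and 10.67 in vivo. Of the 18 members 4 were higher in KSOM, by up to 1.52. Without in vivo replicate 2 the median of the list was -0.05, and without KSOM replicate 3 it was -0.07, so the median rested on single arrays. Interferon-responsive genes had a median of -0.36, with 3 of 15 members, Phf11a, Phf11d and the transcription factor gene Irf9, lower with no overlap. Phf11a and its relative Phf11d were already chosen above for their low p and lack of overlap. The list was also made with earlier results of these data known. Setting this share against the 3.4% of all genes thus cannot tell whether the list as a whole was shifted. The remaining such member, Irf9, differed by -0.76 (limma, unadjusted p = 0.127), and by -0.44 without KSOM replicate 3. The median of the interferon-responsive list was -0.09 with undetected genes at their bound and 0.04 without in vivo replicate 3. For FGF and ERK genes, 9 of 14 were lower, led by Dusp1 and Fos, with a median of -0.24, or -0.09 with undetected genes at their bound. Of 17 genes of TGF-beta, activin and BMP signalling 14 were lower, with a median of -0.21. At an unadjusted p under 0.05, 1 was lower (2.74% of all genes), and 0 were lower with no overlap. The receptor gene Tgfbr1 was at 7.72, 9.28 and 8.31 in KSOM and at 10.12, 10.53 and 8.81 in vivo, where the groups overlapped. It differed by -1.38, and its other probe by -0.75.

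Fluid transport genes of the trophectoderm leaned to lower levels in KSOM. Of 14 pump and water channel genes, 11 were lower, 3 of them at an unadjusted p under 0.05 (2.74% of all genes), and the median was -0.40. Aqp9, a channel for water and glycerol, was at 11.85, 11.89 and 11.54 in KSOM and at 12.44, 12.36 and a higher level on replicate 3 in vivo (mean 12.60 ± 0.35, SD, n = 3), and did not overlap (-0.84 ± 0.26, SE, limma, adjusted p = 0.618). Slc12a2, a cotransporter of sodium, potassium and chloride, was at 9.72, 10.96 and 10.44 in KSOM and at 11.81, 11.92 and 12.10 in vivo (-1.57 ± 0.53, SE), and a second probe was lower in KSOM as well. In CD1 embryos Slc12a2 was at 10.66 on the KSOM array and at 13.68, 13.08 and 11.45 on the in vivo arrays. Atp1b3, a beta subunit of the sodium pump, differed by -0.72. Slc6a6, the taurine transporter, was at 9.82, 10.88 and 8.40 in KSOM and at 11.09, 11.33 and 10.78 in vivo, where KSOM replicate 2 overlapped the in vivo range, and the amino acid transporter list as a whole had a median of -0.07. Slc6a6 differed by -1.37, by -0.72 without KSOM replicate 3 and by -1.96 without KSOM replicate 2, where it passed the threshold (limma, adjusted p = 0.0367). Without in vivo replicate 2 the median of the fluid transport list was -0.16.

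Several groups leaned to higher levels in KSOM. Of 21 imprinted genes tested, 15 were higher, with a median of 0.45, and 5 had all KSOM arrays above all in vivo arrays, against 4.78% of all genes, while 2 were higher at an unadjusted p under 0.05, against 3.18% of all genes. Slc22a18, a transporter gene of a maternally expressed cluster, was at 5.96, 5.51 and 6.35 in KSOM and at 4.58, 4.57 and 5.24 in vivo, where it was detected on no array. Cd81 and Phlda2, neighbours in the same cluster that were named after their values were seen, were at 11.23, 11.51 and 10.88 and at 8.92, 8.43 and 8.43 in KSOM. In vivo, Cd81 was at 9.48, 8.46 and 10.47 and Phlda2, a gene that restrains placental growth, at 7.71, 5.27 and 7.78. For each the lowest in vivo array was replicate 2. With no filter on dim probes the median of the list was 0.13. Igf2, the paternally expressed growth factor, was at 10.04, 8.84 and 7.80 in KSOM and at 8.46, 9.46 and 7.42 in vivo, and Mest, another paternally expressed gene, at 7.32, 8.07 and 7.46 in KSOM and at 7.29, 7.03 and 6.75 in vivo.

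Glucose transport and glycolysis genes were higher for 12 of 18, with a median of 0.38 and 2 higher at an unadjusted p under 0.05 (3.18% of all genes). Slc2a1, the glucose transporter GLUT1, was at 11.54, 10.66 and 10.77 in KSOM and at 10.10, 9.72 and 10.51 in vivo (0.88 ± 0.37, SE, limma, adjusted p = 0.791), and Eno3, an enolase, at 7.05, 6.78 and 7.95 in KSOM and at 6.14, 6.42 and 6.19 in vivo. Neither overlapped. Eno3 differed by 1.01, and by 0.66 without KSOM replicate 3. The median of this list was 0.16 without in vivo replicate 1. Replication-dependent histone genes were higher for 31 of 40, with a median of 0.41, which was 0.12 without KSOM replicate 1. Single members differed in direction, with H2ac8 at 7.10, 6.12 and 9.83 in KSOM and at 5.84, 6.08 and 5.24 in vivo, and H2ac18 in the other direction at 5.57, 5.08 and 4.73 in KSOM and at 6.34, 7.07 and 6.65 in vivo. H2ac8 differed by 1.96, and by 0.89 without KSOM replicate 3. The heat shock list had a median of -0.21, yet Hspb1, a small heat shock protein, stood at 10.07, 9.60 and 11.17 in KSOM and at 8.97, 7.61 and 8.88 in vivo (1.79 ± 0.61, SE, limma, adjusted p = 0.638).

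No member of the stress and metabolic lists passed the adjusted test. The medians were 0.26 for p53 targets, 0.01 for the amino acid starvation response, 0.11 for endoplasmic reticulum folding and stress, 0.05 for oxidative stress genes and -0.17 for apoptosis genes, of which 18 of 20 were lower and 0 reached an unadjusted p under 0.05. Nupr1, a stress-induced gene of the amino acid starvation list, was detected on no KSOM array (5.19, 5.20 and 5.46) and on all 3 in vivo arrays (7.38, 7.54 and 6.67), at least 3.28-fold lower in KSOM. Asns, the asparagine synthetase of the same list, was at 10.52, 10.77 and 11.50 in KSOM and at 11.80, 12.42 and 11.05 in vivo, and overlapped. Cholesterol genes had mean levels of 8.98, 9.05 and 8.86 in KSOM and of 8.35, 8.48 and 10.22 in vivo, so in vivo replicate 3 alone stood high, and the median difference was 0.08. Medians were 0.03 and -0.01 for the respiratory complex lists, -0.01 for cytosolic ribosomal proteins, 0.14 for mitochondrial ribosomal proteins and 0.02 for the proteasome.

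**Figure D5:**
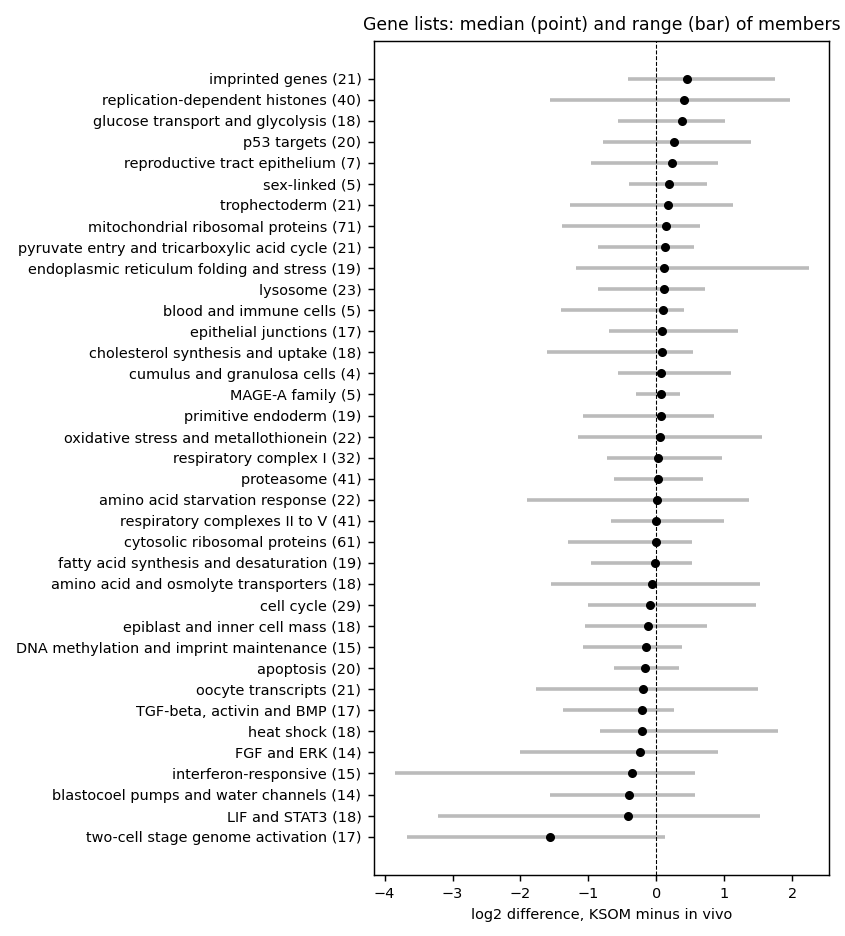
Median (point) and range (bar) of the log2 difference, KSOM minus in vivo, over the tested members of each of 37 gene lists, with the number of members in parentheses. The 2-cell gene list had a median of -1.56, and the other 36 lists had medians between -0.42 and 0.45.

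At most 2 markers of a lineage list were higher, or lower, with no overlap between the groups. Of all genes, 4.78% were higher and 3.4% lower with no overlap. Of 21 trophectoderm markers tested 2 were higher and 0 lower with no overlap, and the median was 0.17. Of 18 epiblast and inner cell mass markers 0 were higher and 2 lower, with a median of -0.13, and of 19 primitive endoderm markers 1 was higher and 1 lower, with a median of 0.06. The trophectoderm factor Cdx2 was at 13.55, 13.15 and 12.54 in KSOM and at 12.89, 13.54 and 12.32 in vivo, and the pluripotency factor Nanog at 12.37, 13.14 and 12.52 in KSOM and at 12.86, 13.13 and 13.33 in vivo, with overlap in both. Gata6, which drives primitive endoderm, was at 11.83, 12.60 and 12.05 in KSOM and at 12.98, 12.93 and 12.48 in vivo (-0.64 ± 0.30, SE, limma, adjusted p = 0.834). Krt7, a keratin of the trophectoderm, was at 10.07, 9.32 and 10.10 in KSOM and at 9.02, 8.27 and 8.81 in vivo, and did not overlap (1.13 ± 0.45, SE). In vivo replicate 3 stood apart from its group in lineage genes. Eomes, a trophoblast factor, was at 6.36 there and at 10.07 and 11.71 on the other in vivo arrays, against 9.96, 9.62 and 9.20 in KSOM. Sox17, of primitive endoderm, was at 4.60 there and at 8.93 and 10.17 on the others, against 8.49, 8.84 and 7.69 in KSOM. The differences in Eomes, 0.22, and Sox17, 0.44, were -1.29 and -1.21 without that array. Pou5f1 was at 12.20 on KSOM replicate 3 and at 12.03 on in vivo replicate 3, against 8.89 to 10.02 on the other 4 arrays. The remaining genes named whatever their result differed by 0.49 (Sox2), 0.05 (Gata3), 0.02 (Gata4), 0.51 (Cdkn1a), -0.29 (Hspa5) and -0.56 (the mitochondrial creatine kinase gene Ckmt1). Their groups overlapped, except in Ckmt1. The directions of Cdx2, Pou5f1, Eomes, Sox17, Gata3, Gata4, Cdkn1a, Igf2 and Cstdc1 turned under 1 or more settings. H19, Peg3, Hspa1b and Trp53 were not among the genes tested.

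KSOM was also set against the other media in B6 embryos. The limma fit called 1 gene of 9345 between KSOM and HTF (0.0107%), with 891 at an unadjusted p under 0.05, and 0 between KSOM and ISM1 (0%), with 1150. The called gene was Cstdc1, a cystatin-type protease inhibitor, at 5.85, 5.90 and 5.12 in KSOM and at 7.88, 8.10 and 7.38 in HTF (-2.16 ± 0.30, SE, limma, adjusted p = 0.0133). Its levels in vivo, 5.62, 5.53 and 6.16, lay near the KSOM arrays. It was not called without KSOM replicate 3, HTF replicate 1 or HTF replicate 2, nor with the authors' values, where the lowest adjusted p of all genes was 0.153 (limma), or in the fits of only the compared arrays (0.316) or only the B6 arrays (0.107). Magea2, of a family of germline antigens, was at 9.36, 9.41 and 9.35 in KSOM, at 11.42, 11.15 and 11.59 in HTF, at 10.52, 10.81 and 10.14 in ISM1 and at 8.95, 8.50 and 9.65 in vivo. Without KSOM replicate 2 the counts were 129 against HTF and 296 against ISM1.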

How the data were processed

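Total RNA of mouse embryonic day 3.5 blastocysts was amplified, labelled with biotin and hybridized to Illumina MouseRef-8 arrays, per the labels' protocols. The deposited table gives, for 25697 probes, a raw bead intensity and a detection p-value for each array. The authors also deposited a table of log2 values, used here as an alternative. BeadStudio 3.2, RMA and lumi are named in the submitters' processing notes, with no order or settings. Groups were taken from the strain and culture medium labels.

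With limma 3.58.1 under R 4.3.3, neqc corrected the intensities for background, using detection p-values in place of negative controls, added an offset of 16, quantile-normalized them and took log2. Probes detected at p under 0.05 on at least 3 of 22 arrays were kept, 12992 in all. A symbol was given to 23978 probes by the platform annotation, and the RefSeq gene table matched 23962 of them and changed 0 symbols. Of several kept probes of a gene the one with the highest mean was used, which gave 9345 genes, 2177 of them with several kept probes. Group means of the 8 groups were fitted to all 22 arrays with lmFit and eBayes (14 residual and 3.51 prior degrees of freedom), and genes with a two-sided p under 0.05 after Benjamini-Hochberg adjustment were called. The number of arrays limits the precision. A gene detected on no array of a group was set to that group's detection floor, and its fold is a lower bound. The fit was checked on simulated data.

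The text names called genes, the 12 genes in each direction with the lowest p among non-overlapping genes detected on all arrays of the higher group with a difference of at least 1 (clone and model names left out), up to 4 members of each list with the lowest p, and set landmarks. Other genes are said to be chosen after their values were seen. The genes, the 37 lists and the tests were chosen with earlier results of these data known. The alternatives changed the normalization, background correction, filter, arrays fitted, weights, prior, offset, probe per gene and arrays left out, and the labels give no scan date or slide.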

Additional observations from a re-analysis of the deposited data

Results flagged for a closer look

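For 3 of the genes named above the CD1 arrays lay on the other side. Rad9b was 1.64 higher in B6 KSOM than in B6 in vivo blastocysts, whereas the CD1 KSOM array was at 6.21 and its difference from the mean of the CD1 in vivo arrays was -0.88. Lins1 differed by 1.15 in B6, and the CD1 KSOM array, at 6.80, by -0.64. Luc7l differed by -1.02 in B6, and the CD1 KSOM array, at 10.7, by 0.29. In each gene all B6 KSOM arrays lay on one side of the in vivo arrays of their strain and the CD1 KSOM array lay on the other. With 1 CD1 KSOM array the difference between strains was not tested.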

How the results depend on the processing

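Between KSOM and in vivo blastocysts, 0 genes were called with RMA-style background, no filter, an offset of 50 or a fit of only the compared or only the B6 arrays. There were 2 with median scaling, with the authors' log2 values and with a trended robust prior, and 1 with the stricter filter and with the lowest probe of each gene. These were Phf11a, lower, and, where there were 2, Nrl, higher. Array weights gave 423 genes, 205 higher and 218 lower. Leaving out 1 array gave 0 to 35, the 35 without KSOM replicate 2. With array intensity as a covariate, chosen after seeing the data, there were 2, and without replicate 3 of both groups, also chosen then, 0. Genes at an unadjusted p under 0.05 numbered 553, 340 with only the compared arrays, 827 with no filter and 2123 with array weights, and 301 to 1185 with 1 array left out. For KSOM against HTF (1 called), the authors' values and both reduced fits gave 0, array weights 221, and 1 array left out 0 to 129. For KSOM against ISM1 (0 called), median scaling, the fit of B6 arrays and an offset of 50 gave 1, no filter 3, array weights 555, and 1 array left out 0 to 296. The cause of these changes was not tested. The replicate block gave 0, 1 and 0 for the 3 comparisons. Deviations of same-numbered KSOM and in vivo arrays from their group means correlated at -0.127, 0.326 and 0.298. Differently numbered arrays gave -0.442 to 0.327. Deviations from a mean of 3 arrays are tied to each other, so this check cannot tell whether the numbers pair the arrays. Phf11a ranged from -4.85 to -2.97 and Nrl from 1.17 to 3.42.

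Directions turned in genes with small or scattered differences. Median scaling gave -0.04 for Gata4 and -0.11 for Gata3, and array weights 0.13 for Cstdc1, -0.36 for Sox17, -0.28 for Eomes and -0.08 for Gata3. The lowest probe gave 1.24 for Wdr45b, -0.05 for Cdkn1a, -0.50 for Sox17, 0.36 for Gm5662 and -0.33 for Gusb. The intensity covariate gave -0.02 for Gata4. Without replicate 3 of both groups Cstdc1 was at 0.30, Sox17 at -0.88, Eomes at -1.10 and Gata3 at -0.28. With 1 array left out, ranges were -0.13 to 0.99 for Igf2, -0.13 to 0.47 for Cdx2, -0.81 to 0.77 for Gata3, -0.06 to 0.17 for Gata4, -0.28 to 0.11 for Cstdc1, -0.35 to 1.27 for Pou5f1, -0.47 to 1.45 for Cdkn1a, -1.21 to 1.57 for Sox17 and -1.29 to 1.38 for Eomes. Dim probes limit the lower end of the scale, where the offset compresses differences.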
